A study of Mus musculus with 11 samples.

Results

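This account covers 45 genes of blood and lymphatic endothelium, taken by symbol from the 35683 genes of a transcript table of mouse colon. The members were listed by name in 4 groups: 30 genes of endothelium in general, 5 lymphatic genes, 5 adhesion genes that TNF is known to induce, and 5 growth factors that act on vessels. All 45 were found, and 42 of them were among the 15079 genes tested. Erg, Tal1 and Sele lay below the limit for testing, an abundance of at least 1 in at least 5 libraries.

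RNA came from the whole thickness of the colon of mice aged 2 weeks, 6 of them Tnfr1-/- (replicates 1 to 6) and 5 wild type (replicates 1 to 5). Both groups were untreated as far as the labels say, which give no strain, sex, litter or batch. The question, from the title, is what deletion of the TNF receptor TNFR1 changes early in life. Every mouse gave 1 library, so a p-value here weighs the difference between groups against the spread between mice. Abundance below is the deposited TPM over size factor, which is scaled for transcript length, summed over the transcripts of a gene.

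Endothelial cells line blood and lymphatic vessels. Their growth and survival depend on VEGF, which binds the receptors encoded by Kdr, Flt1 and Flt4, and on angiopoietins, which bind the receptor encoded by Tek. Factors of the SOX and ETS families keep endothelial identity, and Prox1 directs cells towards the lymphatic fate. TNF acting through TNFR1 turns on NF-kB, and in endothelium that raises E-selectin, ICAM-1 and VCAM-1, which capture leukocytes. MAdCAM-1 is the gut's own addressin, on venules of the mucosa.

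The sequences just upstream of the start are shown for 5 members, since NF-kB at the adhesion genes and ETS factors at the pan-endothelial genes are the textbook inputs to these groups. Each run is the 250 bases before the start, 5′ to 3′ on the gene's strand, from RefSeq (GRCm38.p6). Icam1 and Sele are the most and the least abundant of the adhesion genes. Madcam1 has the widest log2 difference between genotypes of the 4 that were tested. Capitals mark GGG followed after any 5 bases by CC, a strict outline of the NF-kB site, on either strand. Stretches that miss it by a single base, such as tggaaattcc in Icam1, are not marked.
Icam1: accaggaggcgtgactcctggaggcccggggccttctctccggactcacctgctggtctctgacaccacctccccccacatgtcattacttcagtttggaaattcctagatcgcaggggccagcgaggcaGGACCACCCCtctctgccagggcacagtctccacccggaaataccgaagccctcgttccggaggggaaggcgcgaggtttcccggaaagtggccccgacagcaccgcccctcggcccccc
Sele: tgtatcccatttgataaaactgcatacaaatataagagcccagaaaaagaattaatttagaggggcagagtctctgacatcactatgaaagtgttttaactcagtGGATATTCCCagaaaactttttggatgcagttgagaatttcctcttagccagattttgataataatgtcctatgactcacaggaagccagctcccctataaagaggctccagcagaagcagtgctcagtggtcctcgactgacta
Madcam1: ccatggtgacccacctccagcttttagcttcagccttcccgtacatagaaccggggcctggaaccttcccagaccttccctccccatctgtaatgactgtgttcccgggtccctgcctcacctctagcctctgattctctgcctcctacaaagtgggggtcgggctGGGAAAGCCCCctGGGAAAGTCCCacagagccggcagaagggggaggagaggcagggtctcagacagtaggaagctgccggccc
These lie at chr9:21015690-21015939, chr1:164047984-164048233 and chr10:79664309-79664558, all on the plus strand. Icam1 and Sele each had 1 match, and Madcam1 had 4 that overlap within 2 stretches. In the next pair, both pan-endothelial, capitals mark AGGAAG, a core recognised by ETS factors, or its reverse complement.
Tie1: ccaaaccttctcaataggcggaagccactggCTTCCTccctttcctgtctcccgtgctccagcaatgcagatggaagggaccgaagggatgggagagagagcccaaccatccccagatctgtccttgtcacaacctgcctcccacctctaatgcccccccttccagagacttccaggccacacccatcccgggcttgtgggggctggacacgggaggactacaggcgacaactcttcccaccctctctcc
Emcn: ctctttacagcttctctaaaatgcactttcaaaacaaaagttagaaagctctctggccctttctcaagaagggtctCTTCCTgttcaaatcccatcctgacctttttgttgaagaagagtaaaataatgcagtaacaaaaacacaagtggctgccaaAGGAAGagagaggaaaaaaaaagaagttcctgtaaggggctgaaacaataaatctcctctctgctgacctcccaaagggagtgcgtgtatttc
They lie at chr4:118489850-118490099 on the minus strand and chr3:137340828-137341077 on the plus strand, with 1 and 2 matches. Of 32851 promoters of that length, 45.8% held the NF-kB outline and 29.5% held AGGAAG. Of the 25 members with a promoter in the table, 18 held the first and 12 the second. Among the 14 pan-endothelial members, 9 held the NF-kB outline and 8 held AGGAAG. A member was counted if any of its promoters matched, while the shares over all promoters count each promoter, so the measures differ. A match describes the letters and is not evidence of a binding site.

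The targeted gene was Tnfrsf1a, which encodes TNFR1. Its abundance was 73.1, 70.2, 61.7, 68.3 and 62 in wild-type replicates 1 to 5 and ran from 19.01 to 28.03 with a median of 21.1 in Tnfr1-/-. The groups did not overlap, and Tnfrsf1a fell by 1.57 on the log2 scale (limma adjusted p = 8.5e-05), the 1 call among 15079 genes. Depth, estimated from the step that a single read makes in the values, ran from 27.6 to 42.1 M reads per library. It was 27.6, 31.3, 32.5, 42.1 and 34.4 M in wild-type replicates 1 to 5 and 29.6 to 39.7 M in Tnfr1-/-. The endothelial label held in all 11 libraries: of the 8 markers Pecam1, Cdh5, Kdr, Tie1, Emcn, Esam, Cldn5 and Plvap, the lowest value was 7.18, for Kdr in wild-type replicate 2. All 5 lymphatic markers were present too, the lowest being Prox1 at 1.49.

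No difference in endothelial RNA between the genotypes was detected. Of the 42 tested members, 22 were higher and 20 lower in Tnfr1-/-, and 0 passed the test (limma, smallest adjusted p = 0.537), where 0.00663% of all genes tested did. None reached an unadjusted p under 0.05 either, against 9.37% of all genes, and no member had groups that did not overlap, against 1.49% of all genes. Their median log2 difference, Tnfr1-/- minus wild type, was 8.1e-04, beside -0.0061 over all genes tested. Single members ranged from -0.28 for Madcam1 to 0.28 for Sox7. For 37 of the 42 the 95% interval lay inside 1.5-fold either way (82.3% of all genes), and for 42 inside 2-fold (93.2%). The 5 with wider intervals were Sox7, Sox17, Madcam1, Angpt2 and Apln. In bulk tissue, fewer cells of a type and less RNA per cell cannot be told apart, so these values bound both together.

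**Figure D1:**
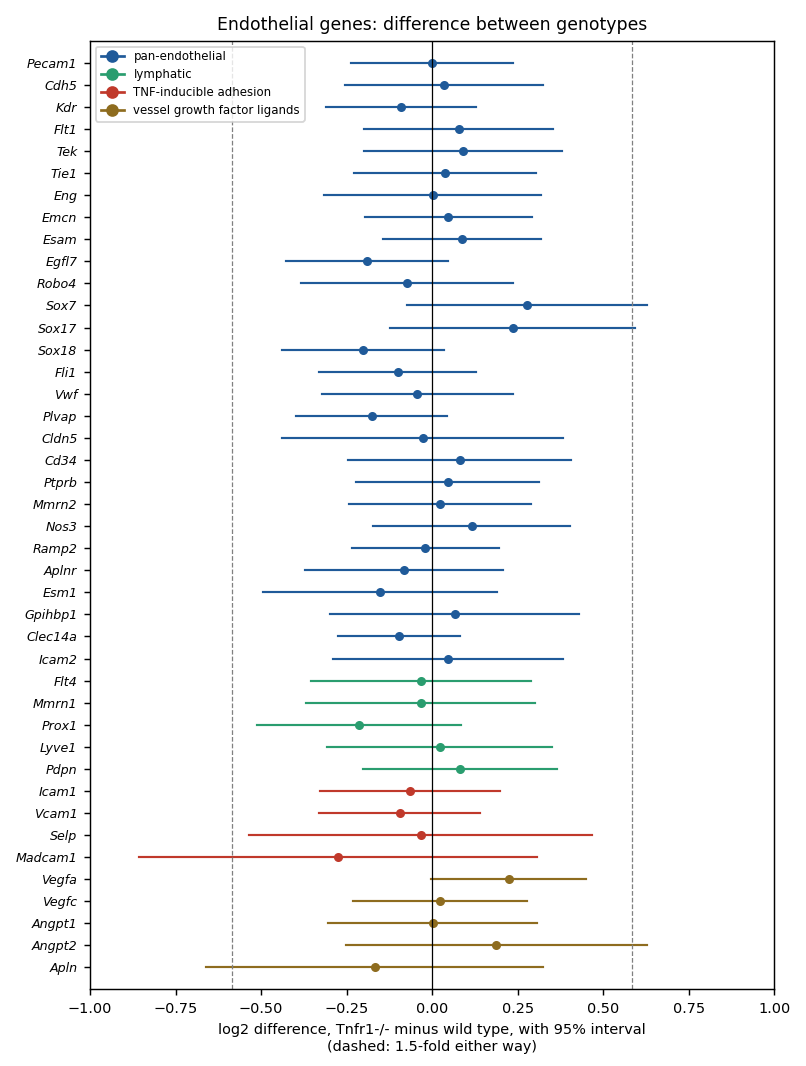
The log2 difference in abundance between Tnfr1-/- and wild-type colon for the 42 tested members, with 95% intervals, coloured by group. All intervals include 0, and 5 of them reach past the dashed lines at 1.5-fold.

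Abundance was scaled for transcript length and summed over all transcripts of a gene. It spanned from Egfl7 at a mean of 57.3 over the 11 libraries to Sele at 0.0774. Cd34 (51.7), Vegfa (47.7), Ramp2 (46.4), Plvap (34.7) and Pecam1 (33.3) followed Egfl7. Cd34, Vegfa and Ramp2 differed from each other by less than their spread over libraries, and so did Plvap and Pecam1. The transcription factors stood lower, with Sox18 at 10.3, Sox7 at 4.26 and Fli1 at 3.29. These sums also count transcripts annotated as retained introns or for nonsense-mediated decay, so they do not rank coding RNA alone. For Egfl7 the coding transcript ENSMUST00000102907.11 held a mean of 10.7, and the retained-intron transcripts ENSMUST00000172683.1 and ENSMUST00000173777.1 held 10.2 and 7.81. For Ramp2 the retained-intron transcript ENSMUST00000138229.1 held 25.9 and ENSMUST00000128260.8, annotated for nonsense-mediated decay, 12.4.

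The receptors for VEGF differed between genotypes by less than the spread between mice. Kdr (ENSMUSG00000062960, chr5:75932827-75978458, GRCm38), the main signalling receptor for VEGF-A, was at 7.43, 7.18, 9.48, 10 and 10.8 in wild-type replicates 1 to 5 and at 8.01 to 8.57 with a median of 8.36 in Tnfr1-/-. The 6 Tnfr1-/- colons were all inside the wild-type range, while wild-type replicates 1 and 2 were the lowest of all 11. The log2 difference for Kdr was -0.091 (95% interval -0.31 to 0.13, limma adjusted p = 0.8097). Flt1, the high-affinity decoy and signalling receptor, was at 4.28, 3.77, 4.56, 5.19 and 6.02 in wild type and at 4.05 to 6.12 with a median of 5.14 in Tnfr1-/-, with overlapping groups. Its log2 difference was 0.077 (-0.20 to 0.35).

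Tek, the angiopoietin receptor, was at 3.84, 3.895, 4.89, 6.79 and 5.55 in wild type and at 4.65 to 5.85 with a median of 5.24 in Tnfr1-/-. Tie1, its co-receptor, was at 7.98, 8.24, 9.62, 12.1 and 11.5 in wild type and at 8.72 to 11.3 with a median of 10 in Tnfr1-/-. In both, wild-type replicate 4 was the highest colon of the 11 and wild-type replicate 1 the lowest. Ptprb, the phosphatase that restrains TEK, ran from 3.40 to 5.25 in wild type and from 3.68 to 5.00 in Tnfr1-/-. The log2 differences of these genes of the angiopoietin pathway were 0.089 for Tek, 0.038 for Tie1 and 0.046 for Ptprb, with intervals that reached at most 0.38 from 0.

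Eng, a co-receptor for BMP and TGF-beta ligands, was at 16.1, 16.5, 20.8, 26.1 and 28.9 in wild type and at 19.6 to 24.2 with a median of 20.8 in Tnfr1-/-. Wild-type replicates 4 and 5 stood above every Tnfr1-/- colon and wild-type replicates 1 and 2 below, and the means were 21.7 ± 5.71 in wild type (SD, n = 5) against 21.2 ± 1.603 in Tnfr1-/- (SD, n = 6). Aplnr, the apelin receptor, was at 22.6, 16.2, 28.1, 24.2 and 29.04 in wild type and at 20.7 to 26.1 with a median of 21.6 in Tnfr1-/-, with a log2 difference of -0.081 (-0.37 to 0.21). Robo4, a guidance receptor that stabilises vessels, was at 6.09, 7.11, 8.37, 9.38 and 8.86 in wild type and at 5.85 to 9.18 with a median of 7.75 in Tnfr1-/-, with a log2 difference of -0.074 (-0.38 to 0.24). The groups overlapped for Eng, Aplnr and Robo4 alike.

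Genes of the junctions and the cell surface differed by less than the spread between mice. Pecam1 (CD31, ENSMUSG00000020717, chr11:106654217-106750628, GRCm38) was at 29.9, 26.2, 33.2, 36.4 and 41.8 in wild type and at 29.5 to 36.7 with a median of 32.9 in Tnfr1-/-. Every Tnfr1-/- colon lay inside the wild-type range, and the log2 difference was 1.2e-05 with a 95% interval of -0.24 to 0.24. Cdh5, which encodes VE-cadherin of the adherens junction, was at 13.4, 13.99, 18.9, 20.9 and 20.1 in wild type and at 15.5 to 21.1 with a median of 17.4 in Tnfr1-/-. Cldn5, a claudin of tight junctions, was at 12.6, 12.5, 15.7, 23.7 and 20.4 in wild type and at 11.1 to 19.1 with a median of 16.7 in Tnfr1-/-. For Cdh5 wild-type replicates 1 and 2 were below all other colons, and for Cldn5 wild-type replicates 4 and 5 were above them. The log2 differences were 0.035 for Cdh5 (-0.26 to 0.33) and -0.027 for Cldn5 (-0.44 to 0.38).

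Esam and Icam2, adhesion molecules of resting endothelium, were at 13.6, 12.99, 15.8, 18.5 and 19.5 and at 6.67, 4.86, 8.73, 8.91 and 9.902 in wild type. In Tnfr1-/- Esam was at 15.5 to 18.7 with a median of 16.7 and Icam2 at 7.19 to 8.72 with a median of 7.74. Tnfr1-/- colons were inside the wild-type range for both. Emcn, a mucin of capillaries and veins, was at 14.97, 12.1, 17.4, 19.99 and 18.7 in wild type and at 15.9 to 18.2 with a median of 17.03 in Tnfr1-/-. Cd34, a sialomucin also found on some fibroblasts, was at 39.4, 36.9, 53.7, 63.9 and 59.2 in wild type and at 46.2 to 61.1 with a median of 50.5 in Tnfr1-/-. For Emcn, Cd34 and Esam the 2 lowest of the 11 colons were wild-type replicates 1 and 2. Log2 differences were 0.088, 0.046, 0.048 and 0.081 for Esam, Icam2, Emcn and Cd34.

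Plvap forms the diaphragms of fenestrated capillaries, which the gut mucosa has in number. Its abundance was 35.6, 34.5, 35.5, 44.5 and 34.9 in wild type and 26.8 to 39.7 with a median of 32.7 in Tnfr1-/-. Wild-type replicate 4 was the highest, but the group ranges overlapped and the log2 difference of -0.18 (-0.40 to 0.044) did not pass the test (limma adjusted p = 0.623). Clec14a, a lectin of the endothelial surface, was at 9.43, 8.53, 7.43, 9.47 and 8.97 in wild type and at 7.34 to 9.46 with a median of 7.87 in Tnfr1-/-, and Mmrn2, the matrix protein that binds it, at 3.51, 3.76, 3.997, 5.83 and 4.69 in wild type and at 3.78 to 5.19 with a median of 4.38 in Tnfr1-/-. Neither differed beyond its spread, with log2 differences of -0.10 (-0.28 to 0.082) and 0.023 (-0.24 to 0.29).

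Among secreted proteins and enzymes, Egfl7, a matrix-bound factor that guides tube formation, had the highest abundance of the members when summed over all its transcripts. It was at 52.2, 49.5, 73.2, 62.3 and 71.7 in wild type and at 48.6 to 60.2 with a median of 52.2 in Tnfr1-/-. Wild-type replicates 3 to 5 stood above all 6 Tnfr1-/- colons and wild-type replicates 1 and 2 within their range. The log2 difference was -0.19 (-0.43 to 0.045, limma adjusted p = 0.618). Vwf, von Willebrand factor, was at 10.5, 7.82, 9.51, 10.4 and 12.5 in wild type and at 7.96 to 12.2 with a median of 9.71 in Tnfr1-/-. Nos3, endothelial nitric oxide synthase, was at 1.93, 2.02, 2.28, 3.03 and 3.01 in wild type and at 2.05 to 3.13 with a median of 2.76 in Tnfr1-/-. The groups overlapped for Vwf and Nos3, whose log2 differences were -0.043 (-0.32 to 0.24) and 0.12 (-0.17 to 0.40).

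Gpihbp1 carries lipoprotein lipase to the capillary surface, Ramp2 partners the adrenomedullin receptor, and Esm1 is a proteoglycan of sprouting tip cells. Gpihbp1 was at 9.93, 8.78, 11.4, 10.9 and 17 in wild type and at 8.92 to 15.7 with a median of 12.1 in Tnfr1-/-. Ramp2 was at 38.2, 41.2, 47.6, 53.2 and 54.2 in wild type and at 41.5 to 51.5 with a median of 46.01 in Tnfr1-/-, with all 6 Tnfr1-/- colons inside the wild-type range. Esm1 was at 3.55, 2.11, 2.97, 2.11 and 3.17 in wild type and at 1.84 to 3.25 with a median of 2.27 in Tnfr1-/-. Unlike most members, Esm1 had its highest value in wild-type replicate 1. The log2 differences were 0.066 for Gpihbp1, -0.019 for Ramp2 and -0.15 for Esm1.

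The SOX factors of endothelium did not all lean the same way, and none of them passed the test. Sox18, which acts in blood and lymphatic vessels, was at 9.82, 9.24, 10.8, 14.8 and 11.5 in wild type and at 8.78 to 10.8 with a median of 9.53 in Tnfr1-/-. Sox7 (chr14:63943673-63950732, GRCm38) was at 2.93, 2.68, 4.79, 4.51 and 4.04 in wild type and at 3.64 to 5.62 with a median of 4.75 in Tnfr1-/-. Sox17, linked to arteries, was at 2.48, 2.98, 2.97, 4.69 and 3.65 in wild type and at 2.78 to 4.96 with a median of 4.01 in Tnfr1-/-. Wild-type replicates 1 and 2 were the lowest colons for Sox7, and all group ranges overlapped. The log2 differences were -0.20 for Sox18 (-0.44 to 0.034, limma adjusted p = 0.595), 0.28 for Sox7 (-0.074 to 0.63, limma adjusted p = 0.626) and 0.24 for Sox17 (-0.12 to 0.59).

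Fli1, an ETS factor of endothelial and blood cells, was at 3.02, 2.89, 3.56, 3.63 and 4.099 in wild type and at 2.66 to 3.595 with a median of 3.16 in Tnfr1-/-, a log2 difference of -0.10. Tal1, a factor of blood and vessel progenitors, ran from 0.709 to 1.24 in wild type and from 0.745 to 1.27 in Tnfr1-/-, too low to be tested. Erg, the ETS factor most used to mark endothelium, was listed at 0 in wild-type replicates 3 and 5 and Tnfr1-/- replicate 4 and reached at most 0.900, in Tnfr1-/- replicate 2. A value listed at 0 can be a failed estimate, and Pecam1 and Cdh5 were well above 0 in those same colons.

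The lymphatic group showed no called difference (0 of 5). Prox1 (chr1:190118035-190170714, GRCm38), the master factor of lymphatic identity, was at 1.58, 1.55, 2.596, 2.65 and 2.25 in wild type and at 1.49 to 1.92 with a median of 1.75 in Tnfr1-/-. Wild-type replicates 3 to 5 were above all Tnfr1-/- colons and wild-type replicates 1 and 2 were among them. The log2 difference was -0.21 (-0.51 to 0.085, limma adjusted p = 0.657), on an estimated 278 to 729 reads per library. Prox1 is also made by some other cells of the gut wall.

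Flt4, the receptor for VEGF-C, was at 2.54, 2.46, 3.37, 4.84 and 3.85 in wild type and at 2.99 to 3.68 with a median of 3.205 in Tnfr1-/-. Mmrn1, a multimerin of lymphatic endothelium and platelets, was at 4.35, 3.92, 5.46, 7.998 and 6.43 in wild type and at 4.702 to 5.83 with a median of 5.38 in Tnfr1-/-. Lyve1, the hyaluronan receptor of lymphatic capillaries and of some macrophages, was at 7.91, 7.42, 10.96, 13.6 and 12.03 in wild type and at 8.77 to 12.2 with a median of 10.2 in Tnfr1-/-. These genes followed 1 pattern: wild-type replicates 1 and 2 were the lowest of the 11 colons, wild-type replicate 4 the highest, and the Tnfr1-/- colons lay between. Their log2 differences were -0.033 (-0.35 to 0.29), -0.034 (-0.37 to 0.30) and 0.022 (-0.31 to 0.35). The 8 macrophage markers, 7 of them tested, summed to 110 to 154 in wild type and 81.6 to 137 in Tnfr1-/-. Of these 0 were called and none was at 0 in all libraries, and their part in Lyve1 was not tested.

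Pdpn, podoplanin, which fibroblasts and mesothelium also make, was at 5.73, 4.85, 5.59, 7.69 and 5.71 in wild type and at 5.28 to 8.35 with a median of 6.07 in Tnfr1-/-. Its highest colon was Tnfr1-/- replicate 4, and its log2 difference was 0.082 (-0.20 to 0.37). The 7 mesothelium markers, 5 of them tested, summed to 3.69 to 13.6 in wild type and 4.66 to 23.1 in Tnfr1-/-. Of these 0 were called, and their part in Pdpn was not tested. The table lists Pdpn under 2 gene IDs with identical values in every library. The first was used, so the level may be understated, while the difference between groups is the same for both. Vegfc, the ligand of Flt4, was at 4.43, 4.96, 4.47, 6.97 and 5.25 in wild type and at 4.47 to 6.13 with a median of 5.23 in Tnfr1-/-, with a log2 difference of 0.024 (-0.23 to 0.28).

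No adhesion gene that TNF can induce passed the test (0 of 4 tested). By mean abundance Icam1, Vcam1 and Madcam1 ranked 23, 25 and 30 of the 45 members, Selp 42 and Sele 45. All 4 tested were lower in Tnfr1-/-, by log2 differences of -0.064 for Icam1, -0.094 for Vcam1, -0.034 for Selp and -0.28 for Madcam1. In the same fit 47.9% of all genes were higher. That shared sign did not hold without wild-type replicates 1 and 2, where Icam1 was at 0.056 and Selp at 0.21, above 0, Vcam1 at -0.15 and Madcam1 at -0.62. Icam1 (ENSMUSG00000037405, chr9:21015985-21028817, GRCm38), the ligand of leukocyte integrins, was at 6.94, 6.13, 4.37, 6.47 and 4.96 in wild type and at 4.58 to 6.28 with a median of 5.298 in Tnfr1-/-. The Tnfr1-/- colons were inside the wild-type range, and the 95% interval was -0.33 to 0.20. Vcam1, the ligand of the integrin VLA-4, was at 4.77, 5.53, 5.26, 7.04 and 4.904 in wild type and at 4.4 to 5.904 with a median of 5.07 in Tnfr1-/-, with an interval of -0.33 to 0.14. Wild-type replicate 4 was the highest for Vcam1 and wild-type replicate 1 for Icam1.

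Madcam1 (ENSMUSG00000020310, chr10:79664559-79668537, GRCm38) was at 3.19, 3.39, 7.17, 7.46 and 4.82 in wild type and at 2.096 to 5.82 with a median of 4.25 in Tnfr1-/-. Wild-type replicates 3 and 4 were the highest and Tnfr1-/- replicate 2 the lowest, and the other 8 colons overlapped. The means were 5.21 ± 2.03 in wild type (SD, n = 5) against 4.14 ± 1.27 in Tnfr1-/- (SD, n = 6). That log2 difference of -0.28 had a 95% interval of -0.86 to 0.31 and a limma adjusted p of 0.775, so a fall to 0.552 of the wild-type level and a rise of 1.24-fold were both inside it.

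The selectins were the scarcest. Selp, P-selectin of endothelium and platelets, was at 1.33, 1.87, 0.569, 1.42 and 0.7596 in wild type and at 0.737 to 1.79 with a median of 1.08 in Tnfr1-/-. The groups overlapped, on an estimated 41 to 75 reads per library, and the interval was -0.54 to 0.47. Sele, E-selectin, which is made mostly after cytokine stimulation, was at 0.0806, 0.0851, 0.0537, 0.122 and 0.116 in wild type and at 0.0122 to 0.115 with a median of 0.0756 in Tnfr1-/-. That corresponds to an estimated 4 to 12 reads per library in wild type and 1 to 10 in Tnfr1-/-, and Sele lay under the limit for testing. A single read is a large share of such a value, so a small difference in Sele could not be resolved.

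**Figure D2:**
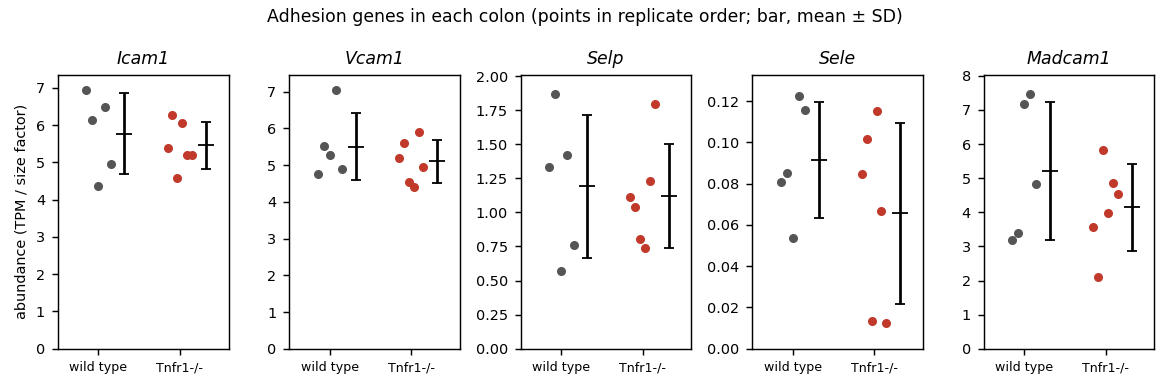
Abundance (TPM divided by a size factor) of the 5 adhesion genes in each colon, by genotype, with the mean and SD beside the points; each panel has its own axis, which starts at 0. The groups overlap for every gene, and Sele reaches at most 0.122 in the 11 colons.

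Of the ligands, Vegfa (ENSMUSG00000023951, chr17:46016993-46032369, GRCm38) came nearest to the threshold of all members. It was at 41.1, 44.4, 38.1, 49.7 and 44.3 in wild type and at 39.8 to 60.6 with a median of 51.8 in Tnfr1-/-. Tnfr1-/- replicates 1, 2 and 5 were above all wild-type colons, and Tnfr1-/- replicate 6 was the second lowest of the 11. Means were 43.5 ± 4.31 in wild type (SD, n = 5) against 51.1 ± 7.26 in Tnfr1-/- (SD, n = 6), a log2 difference of 0.22 (95% interval -0.0032 to 0.45, limma adjusted p = 0.537). In the gut Vegfa is made by epithelium and other cells as well as endothelium.

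Angpt1, the ligand that activates TEK, was at 1.91, 1.496, 2.26, 2.62 and 2.23 in wild type and at 1.58 to 2.64 with a median of 2.04 in Tnfr1-/-. Angpt2, which endothelium releases and which can oppose Angpt1, was at 1.45, 1.78, 2.19, 3.904 and 3.08 in wild type and at 2.18 to 3.15 with a median of 2.96 in Tnfr1-/-. For Angpt2 wild-type replicates 1 and 2 were the lowest colons and wild-type replicate 4 the highest. Log2 differences were 0.0016 (-0.30 to 0.31) and 0.19 (-0.25 to 0.63). Apln, apelin, was at 4.57, 2.81, 8.81, 6.86 and 5.82 in wild type and at 4.05 to 5.87 with a median of 4.64 in Tnfr1-/-. Apln varied widely within wild type, from 2.81 in replicate 2 to 8.81 in replicate 3, and its log2 difference was -0.17 (-0.66 to 0.32).

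The members varied more between wild-type mice than between Tnfr1-/- mice. The log2 SD was larger in wild type for 39 of 42 members, against 64.8% of all genes tested, with a median of 0.26 in wild type and 0.15 in Tnfr1-/- (0.18 and 0.14 over all genes). All 6 Tnfr1-/- colons lay between the lowest and the highest wild-type colon for 23 of 42, against 29.5% of all genes. The difference in spread between genotypes was not tested.

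That spread had a shared direction. Wild-type replicates 1 and 2 were both below the other 3 wild-type colons for 31 of 42 members, against 25.8% of all genes. The highest of the 11 colons was wild-type replicate 4 or 5 for 29 members (69.0%, against 22.4% of all genes), and the lowest was wild-type replicate 1 or 2 for 28 (66.7%, against 30%). As a mean deviation of log2 abundance from each gene's own mean, the 28 tested pan-endothelial genes stood at -0.19, -0.29, 0.031, 0.21 and 0.23 in wild-type replicates 1 to 5 and at -0.064 to 0.099 in Tnfr1-/-. The 5 lymphatic genes stood at -0.24, -0.34, 0.087, 0.43 and 0.16 in wild type and at -0.099 to 0.10 in Tnfr1-/-. Wild-type colons thus lay on both sides of the Tnfr1-/- colons for both groups of genes.

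**Figure D3:**
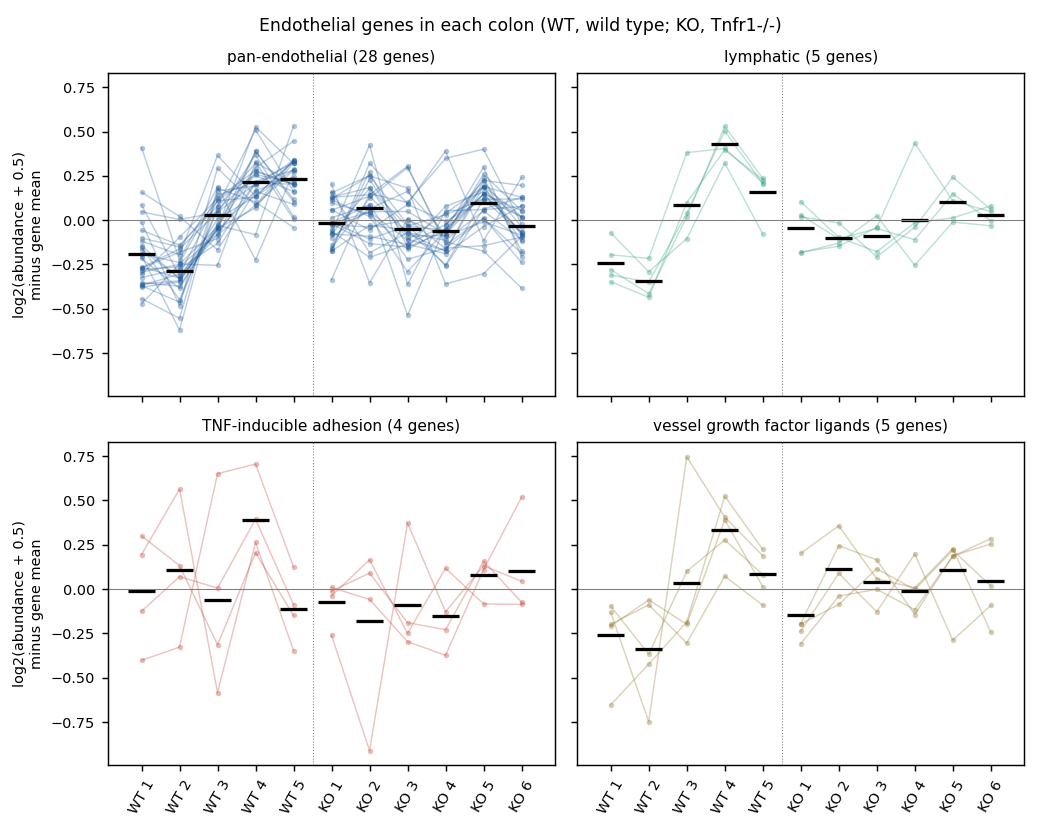
Log2 abundance of each tested member minus its mean over the 11 libraries, in each colon, in 4 panels by group of genes; thin lines join the values of a gene and black bars are the mean of the group. Wild-type replicates 1 and 2 lie low and 4 and 5 high in the pan-endothelial panel, where the means of the Tnfr1-/- colons stay between -0.064 and 0.099.

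The 4 tested adhesion genes did not share that order. Their mean deviations were -0.0082, 0.11, -0.060, 0.39 and -0.11 in wild-type replicates 1 to 5 and ran from -0.18 to 0.10 in Tnfr1-/-. Wild-type replicate 4 was high in this group too, and replicates 1 and 2 were not low. Both of these were below the other 3 wild-type colons for 1 of the 4 genes. The difference between group means was 3.2e-04 for the pan-endothelial genes, -0.035 for the lymphatic genes and -0.12 for the adhesion genes, given as descriptions with no test.

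Markers of some other tissue compartments set wild-type replicates 1 and 2 apart in the same way or the opposite way, and others did not. For the 8 epithelial markers the mean deviation reached 0.35 in wild-type replicate 1, 0.48 in wild-type replicate 2, and no more than 0.18 in any other colon. Their summed abundance ran from 5780 to 9134 in wild type and from 5361 to 7477 in Tnfr1-/-. The 8 fibroblast markers were at -0.41 in wild-type replicate 1, -0.54 in replicate 2 and 0.56 in replicate 4. They summed to between 1635 and 3669 in wild type and between 2028 and 3087 in Tnfr1-/-, and replicates 1 and 2 were both below the other 3 wild-type colons for 8 of 8.

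The 8 pericyte markers, of the mural cells that wrap capillaries, were at -0.27 in wild-type replicate 1, -0.39 in replicate 2 and 0.29 in replicate 4. Their sums ran from 117 to 210.0 in wild type and from 149 to 182 in Tnfr1-/-. The 9 tested interferon-gamma response genes were at 2.01 in wild-type replicate 1, 0.37 in wild-type replicate 2, and no more than 0.19 in any other colon. Sums over all 11 genes of that list, tested or not, ran from 128 to 685 in wild type and from 133 to 196 in Tnfr1-/-. None of these markers was at 0 in all libraries, and none was called between genotypes (0 of 8 epithelial, 0 of 8 fibroblast, 0 of 8 pericyte and 0 of 9 interferon-gamma response genes). Smooth muscle markers did not follow this order, at 0.010 in wild-type replicate 1, -0.59 in replicate 2, 0.68 in replicate 4 and -0.34 in replicate 5. Leukocyte markers were at -0.36 in replicate 1 and 0.84 in replicate 2. Wild-type replicate 1 also had the lowest depth of the 11 libraries and wild-type replicate 4 the highest. The part of these compartments, or of depth, in the spread of the endothelial genes was not tested.

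**Figure D4:**
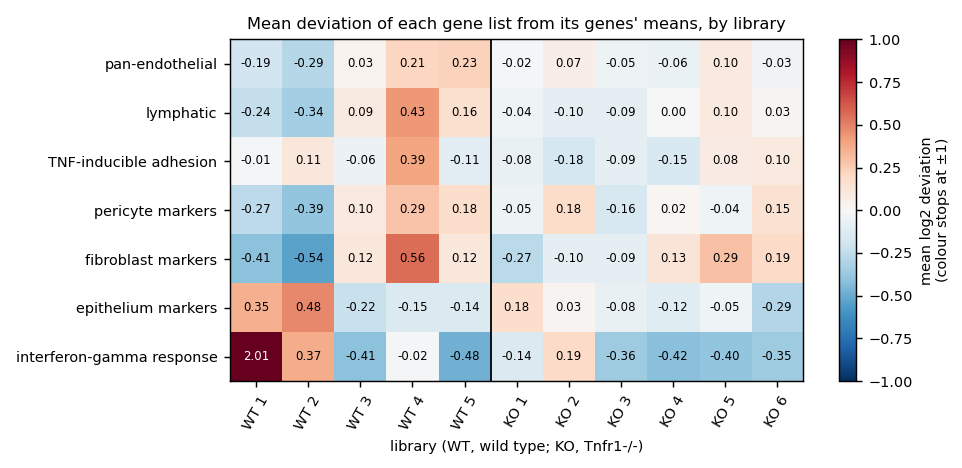
Mean log2 deviation from the gene means, over the tested genes of 7 lists, in each of the 11 colons; red is above and blue below the mean, and colours stop at 1 in either direction. Wild-type replicates 1 and 2 read -0.19 and -0.29 for pan-endothelial genes, 0.35 and 0.48 for epithelial markers and 2.01 and 0.37 for interferon-gamma response genes.

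Without wild-type replicates 1 and 2, the members leaned towards lower values in Tnfr1-/-. Then 37 of 42 members were lower in Tnfr1-/- (52.5% of all genes), with a median log2 difference of -0.15, and 0 passed the test (smallest limma adjusted p = 0.138), where 0.0067% of all genes did. At an unadjusted p under 0.05, 12 members were lower, 28.6% of those tested against 10.3% of all genes, and 0 were higher (6.12% of all genes). They were Kdr, Eng, Egfl7, Sox18, Aplnr, Icam2, Flt4, Mmrn1, Prox1, Lyve1, Madcam1 and Apln. Among the lymphatic genes 4 of 5 were in that set, with Prox1 at -0.43 and Flt4 at -0.26 on the log2 scale. Leaving out the lowest wild-type colons lowers these differences by construction, and wild type then had 3 mice.

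The list scores moved with it, to -0.16 for the pan-endothelial genes and -0.24 for the lymphatic genes, and that of the adhesion genes was -0.13. The adhesion genes moved apart, since Icam1 and Selp turned above 0 and Madcam1 went from -0.28 to -0.62, and their median went from -0.079 to -0.045. Kdr, the member with the smallest spread among the Tnfr1-/- colons, was at -0.27 and Egfl7 at -0.36 in that fit, neither passing adjustment by limma over all genes. The direction for the members as a group therefore rested on the wild-type replicates kept.

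Further genes of vessels, from lists that hold no member, gave no called difference either. Of 86 such genes 79 were tested, with 48 higher (47.9% of all genes), 31 lower and 0 called. At an unadjusted p under 0.05, 3 were higher and 1 lower, where 4.20% and 5.17% of all genes were. Among 24 further pan-endothelial genes, 12 were higher and 12 lower, none at that p, and wild-type replicates 1 and 2 were both lowest of wild type for 22. Without those 2 colons the balance of the 79 turned, to 25 higher and 54 lower (52.5% of all genes) with 0 called. At that p 2 were higher and 13 lower (6.12% and 10.3% of all genes). This alternative was chosen for these lists after the data were seen.

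Of 11 tested arterial and Notch genes 9 were higher in Tnfr1-/- (47.9% of all genes). Under an unadjusted p of 0.05 were 2, both higher (4.20% of all genes). Notch1, a receptor that limits vessel sprouting and acts in many other cells, was at 5.59, 6.45, 8.43, 7.503 and 7.19 in wild type and at 7.07 to 12.1 with a median of 9.18 in Tnfr1-/-. Hey1, a Notch target in arteries, was at 3.44, 2.94, 3.78, 3.93 and 4.54 in wild type and at 3.8 to 6.23 with a median of 4.96 in Tnfr1-/-. Groups overlapped for both, and neither passed adjustment, with log2 differences of 0.39 (limma adjusted p = 0.433) and 0.33 (limma adjusted p = 0.482). Sox17, the arterial member, had 0.24 in the same direction, and 0.081 without wild-type replicates 1 and 2. Its 419-codon coding transcript ENSMUST00000027035.9 had the opposite sign, at -0.14 (-0.51 to 0.23). The 2-exon ENSMUST00000191939.1 was at 0.58 (-0.15 to 1.31) and ENSMUST00000195555.1 at 0.023 (-0.39 to 0.44). Wild-type replicates 1 and 2 were the lowest colons for the list, with mean deviations of -0.26 and -0.24, against -0.031, 0.0077 and 0.13 in replicates 3 to 5 and a Tnfr1-/- mean of 0.066. Without these 2 colons 7 were higher and 4 lower (52.5% of all genes). The difference in mean deviation went from 0.15 to 0.031, and Notch1 was at 0.26 and Hey1 at 0.21. At an unadjusted p under 0.05 in that fit 1 was higher and 0 lower (6.12% and 10.3% of all genes). This was Efnb2, at 0.24 (limma adjusted p = 0.138).

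Angptl4, a secreted inhibitor of lipoprotein lipase, whose carrier is GPIHBP1, was at 4.45, 6.38, 7.46, 9.07 and 7.04 in wild type and at 6.99 to 12.1 with a median of 8.32 in Tnfr1-/-. Its log2 difference of 0.39 (limma adjusted p = 0.526) was the only 1 of 13 further growth factors and co-receptors under an unadjusted p of 0.05. Smad6, a brake on BMP signalling in endothelium, was at 9.48, 11.1, 10.9, 9.23 and 10.01 in wild type and at 8.16 to 10.04 with a median of 9.04 in Tnfr1-/-, a log2 difference of -0.16 (limma adjusted p = 0.527). The groups overlapped for each. Venous and capillary genes (9 tested) and other lymphatic genes (9 tested) held 0 under that p.

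Beside the adhesion genes, 13 further NF-kB genes of activated endothelium were tested, with 0 called. In Tnfr1-/- 3 of these were higher, where 47.9% of all genes were, and 10 lower. That direction rested on wild-type replicates 1 and 2, whose mean deviations were 0.44 and 0.26, against -0.12, 0.045 and -0.19 in replicates 3 to 5 and a Tnfr1-/- mean of -0.071. Without them 12 were tested, 8 higher and 4 lower (52.5% of all genes), with a median log2 difference of 0.059. At an unadjusted p under 0.05 in that fit 1 was higher and 0 lower (6.12% and 10.3% of all genes). This was Tnfaip3, at 0.64 (limma adjusted p = 0.138). With all 11 colons 0 genes of the list were higher at an unadjusted p under 0.05, and the largest log2 difference was 0.16. Leaving out the colons highest for this list raises these differences by construction, and wild type then had 3 mice. The same 2 colons had the highest values for interferon-gamma response genes, 2.01 and 0.37, whose part in the NF-kB list was not tested. Ccl2, a chemokine that draws monocytes, was at 1.89, 1.31, 1.14, 1.58 and 0.965 in wild type and at 0.265 to 1.26 with a median of 0.827 in Tnfr1-/-. The 3 lowest values were Tnfr1-/- colons and the highest was wild-type replicate 1, but the ranges overlapped. The log2 difference was -0.61 (limma adjusted p = 0.462). Since 0.5 is added before the log is taken, changes at such low levels are understated. The leukocyte partners of the adhesion genes, among them integrin subunits and the selectin ligand Selplg, had 8 tested, 5 lower, 3 higher and 0 under an unadjusted p of 0.05.

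Of 13 hypoxia genes, a group that Vegfa belongs to by its regulation, 5 were higher (47.9% of all genes), 8 lower and 0 called. Without wild-type replicates 1 and 2 this turned to 11 higher and 2 lower (52.5% of all genes). Bnip3, a mitochondrial protein induced by low oxygen, was at 61.3, 48.2, 58.3, 60.5 and 83.1 in wild type and at 67.2 to 78.1 with a median of 73.3 in Tnfr1-/-, with a log2 difference of 0.25 (limma adjusted p = 0.519). Wild-type replicate 5 was the highest for Bnip3, so the groups overlapped.

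The table also resolves transcripts. Of 183 transcripts of the members 83 were tested, over 41 genes, and 0 were called (limma, smallest adjusted p = 0.503), where 0.00902% of all 33276 transcripts tested were. At an unadjusted p under 0.05 there were 3, 2 higher and 1 lower, against 8.26% of all transcripts (4.33% higher and 3.93% lower). No member transcript had groups that did not overlap, as 1.2% of all transcripts did. By the p-values of the authors' deposited table, 4 of 111 member transcripts were under 0.05, of Egfl7, Erg and Vegfa, against 4.39% of all, and each had a q-value of 1.

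For Vegfa both higher transcripts were among those 3. The coding transcript ENSMUST00000071648.11, with 7 exons and 368 codons, was at 16.3, 18.5, 16.1, 16.7 and 16.9 in wild type and at 15.4 to 24.8 with a median of 20.4 in Tnfr1-/-. The transcript ENSMUST00000150327.7, annotated as a retained intron, was at 7.27, 10.96, 7.75, 11.9 and 8.79 in wild type and at 8.596 to 18 with a median of 13.8 in Tnfr1-/-. Log2 differences were 0.26 (limma adjusted p = 0.559) and 0.50 (limma adjusted p = 0.5302). The coding transcript ENSMUST00000024747.13, with 6 exons and 146 codons, leaned the other way, at 6.57, 3.38, 6.05, 5.65 and 7.33 in wild type and at 3.03 to 5.88 with a median of 4.02 in Tnfr1-/-, a log2 difference of -0.42 (-0.89 to 0.048). Groups overlapped for all of these.

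As shares of Vegfa, the 5 transcripts annotated with a retained intron held 43.2% ± 3.47 in wild type (SD, n = 5) against 47.8% ± 1.53 in Tnfr1-/- (SD, n = 6). The two-sided exact permutation test over 462 splits gave p = 0.0260, and 0.104 after adjustment over 4 shares. The share was above 46.5% in all 6 Tnfr1-/- colons and in wild-type replicate 2, the only wild-type colon at that height. The 146-codon transcript held 13.5% ± 3.88 in wild type (SD, n = 5) against 8.56% ± 3.56 in Tnfr1-/- (SD, n = 6, exact permutation p = 0.0649, adjusted 0.130). These shares were chosen after the transcript values had been seen. Reads of 75 bases from a single end leave the split between such similar transcripts to an estimate, whose error the table does not give.

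Flt1 makes a full-length receptor and a short transcript whose product is secreted and traps VEGF. The full-length transcript ENSMUST00000031653.11 (30 exons, 1333 codons) was at 2.87, 2.24, 2.86, 3.24 and 3.78 in wild type and at 2.53 to 3.28 with a median of 3.04 in Tnfr1-/-. The short transcript ENSMUST00000110529.5 (13 exons, 688 codons) was at 1.41, 1.54, 1.68, 1.93 and 2.202 in wild type and at 1.39 to 2.05 with a median of 1.84 in Tnfr1-/-. The short form made up 36.9% ± 2.74 of Flt1 in wild type (SD, n = 5) against 36.1% ± 3.42 in Tnfr1-/- (SD, n = 6, exact permutation p = 0.641), so the balance of the 2 forms differed by less than the spread between mice. The shorter of the 2 Cd34 transcripts held 23.3% ± 4.71 of Cd34 in wild type (SD, n = 5) against 24.6% ± 3.61 in Tnfr1-/- (SD, n = 6, exact permutation p = 0.623).

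**Figure D5:**
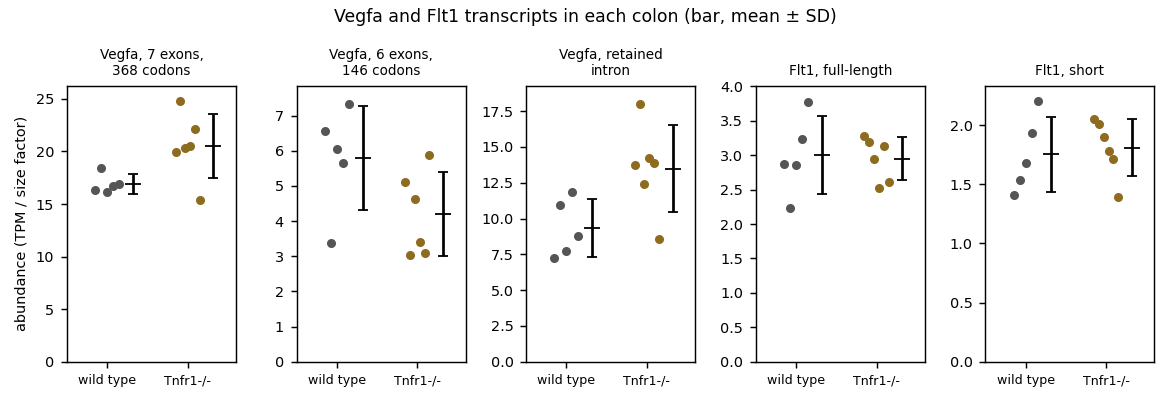
Abundance (TPM divided by a size factor) of 3 Vegfa transcripts and 2 Flt1 transcripts in each colon, by genotype, with the mean and SD beside the points; each panel has its own axis from 0. Both groups overlap in every panel, and the retained-intron Vegfa transcript has its highest value, 18.0, in a Tnfr1-/- colon.

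The third transcript at that p was ENSMUST00000146264.1 of Vwf, a processed transcript of 2 exons, at 4.401, 2.01, 3.597, 2.098 and 2.89 in wild type and at 0.739 to 2.63 with a median of 1.27 in Tnfr1-/-. Its log2 difference was -0.84 (-1.43 to -0.25, limma adjusted p = 0.503), while the full coding transcript ENSMUST00000112254.7 (52 exons, 2813 codons) was at 0.24 (-0.20 to 0.68). Pecam1 had 2 coding transcripts that leaned in opposite directions, ENSMUST00000080853.10 at 0.39 and ENSMUST00000183610.7 at -0.45, and neither passed the limma test. The major Pecam1 transcript ENSMUST00000103069.9 was at -0.036 (-0.33 to 0.26).

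Other members with more than 1 tested transcript gave no call. Aplnr had its 1-exon coding transcript ENSMUST00000057019.8 at 10.01, 10.6, 13.5, 16.9 and 14.9 in wild type and 11.7 to 16.4 with a median of 13.5 in Tnfr1-/-, a log2 difference of 0.068 (-0.23 to 0.37). Its 2-exon transcript ENSMUST00000184728.1 had the opposite sign, at -0.24 (-0.76 to 0.29), and the sum for the gene was at -0.081. Tek's full transcript ENSMUST00000102798.7 was at -0.15 (-0.57 to 0.27) and the main coding transcript of Egfl7, ENSMUST00000102907.11, at -0.39 (-0.87 to 0.079). The main Madcam1 transcript ENSMUST00000020554.7 was at -0.19 and the shorter ENSMUST00000217748.1 at -0.35. Both Madcam1 forms thus had the sign of the gene, and neither passed the test.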

How the data were processed

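RNA of 11 mouse colons was read as single-end reads of 75 bases from stranded mRNA libraries, per the labels' protocols. CASAVA, kallisto, sleuth and the build mm10 are listed, without versions, per the submitters' processing notes. The authors deposited a signal per transcript, TPM divided by a size factor. Per the file headers, the table also holds the authors' p-value and q-value, a mean on the natural log scale and a log2 fold change. Repeated lines (584 transcripts) were dropped and values summed per Ensembl gene.

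Groups were compared with limma 3.58.1 in R 4.3.3 (trend, two-sided, Benjamini-Hochberg over all features) on log2(value + 0.5), for features with a value of at least 1 in at least 5 libraries. Python 3.11.15 with pandas 2.3.3, numpy 2.4.6, scipy 1.17.1 and matplotlib 3.10.9 did the rest. A count test had been planned for a table of counts and was not used. Depth is an estimate: under a fragment length of 200 bases, 58.6% to 63.3% of low values came within 0.02 of a whole read (1.16% to 1.48% at other steps), so intervals from counts were not made. The fits were tested on simulated data.

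Members, lists and tests were chosen with earlier results of these data known. Named are the members, Tnfrsf1a and from each list described up to 4 genes in order of p. Transcripts named are up to 3 of a member in order of mean, and those among the 5 smallest p. Others were chosen after their values were seen. Positions are from GENCODE M21 and promoters from RefSeq. Alternatives were other scalings, pseudocounts and filters, a replicate block, a covariate and left-out libraries. The labels do not say that the replicate numbers pair the mice, and the main fit did not pair them. Number of sample columns left unused: 0.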

Additional observations from a re-analysis of the deposited data

Results flagged for a closer look

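Of 90 groups of values checked for a colon far from the rest of its genotype, 2 had one, where chance gives about 4.5. Plvap was at 44.5 in wild-type replicate 4, above the other wild-type colons, the nearest at 35.6. Tnfr1-/- replicate 5 had Aplnr at 26.1, where the next highest of its genotype was at 22.4.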

How the results depend on the processing

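Across 20 alternatives, 9 of them other than leaving out 1 library, 0 members were called, and the smallest adjusted p of any member was 0.138. Called genes numbered 1 throughout, Tnfrsf1a, except for 2 without wild-type replicate 1 and 2 with the level of the 8 endothelial markers as a covariate, an alternative chosen after seeing the data. The second was Bid, named after its value was seen. Leaving out 1 replicate at a time gave 1 to 2 called genes. The sign of a member's difference reversed in 85 of 806 values, for 26 members, all with a difference under 0.19 in size, and 16 kept their sign. The causes were not tested, apart from the lowest wild-type colons being left out. The replicate numbers correlated at 0.27, -0.0060, 0.38, -0.22 and 0.33 between same-numbered colons, and 1 of 5 numbers matched best with its own. Whether the numbers pair the mice cannot be told from this, since the labels give no litter or batch. With the replicate number as a block, 1 gene, 0 members and 0 member transcripts were called, and the sign turned for Eng (-0.0021), Angpt1 (-0.055) and ENSMUST00000031653.11 (0.019). With a pseudocount of 1, the sign turned for Pecam1 (-1.9e-04). Without wild-type replicates 1 and 2, the sign turned for Pecam1 (-0.16), Cdh5 (-0.18), Flt1 (-0.059), Tek (-0.11), Tie1 (-0.13), Eng (-0.24), Emcn (-0.14), Esam (-0.077), Cd34 (-0.17), Ptprb (-0.12), Mmrn2 (-0.12), Nos3 (-0.042), Gpihbp1 (-0.11), Icam2 (-0.21), Lyve1 (-0.23), Pdpn (-0.0094), Icam1 (0.056), Selp (0.21), Vegfc (-0.058), Angpt1 (-0.15), Angpt2 (-0.10) and ENSMUST00000110529.5 (-0.080). With quantile normalization, the sign turned for Tie1 (-0.0031), Eng (-0.0065), Mmrn2 (-0.017), Lyve1 (-0.014), Vegfc (-0.010), Angpt1 (-0.021) and ENSMUST00000110529.5 (-0.015). After rescaling to TPM, the sign turned for ENSMUST00000031653.11 (0.0071). Leaving out each replicate in turn gave ranges that crossed 0 for Pecam1 (-0.082 to 0.083), Cdh5 (-0.052 to 0.10), Tie1 (-0.031 to 0.11), Eng (-0.092 to 0.11), Emcn (-0.058 to 0.12), Vwf (-0.13 to 0.032), Cldn5 (-0.12 to 0.10), Cd34 (-0.023 to 0.17), Ptprb (-0.018 to 0.12), Mmrn2 (-0.042 to 0.12), Ramp2 (-0.089 to 0.036), Gpihbp1 (-0.021 to 0.21), Icam2 (-0.10 to 0.14), Flt4 (-0.12 to 0.089), Mmrn1 (-0.14 to 0.094), Lyve1 (-0.084 to 0.12), Icam1 (-0.15 to 0.0018), Selp (-0.18 to 0.10), Vegfc (-0.025 to 0.12), Angpt1 (-0.090 to 0.071), ENSMUST00000110529.5 (-0.016 to 0.11) and ENSMUST00000031653.11 (-0.094 to 0.067). The adhesion score has no value with the filter at 10, since none of its genes is left, and scores were not run with the block or the covariate. Depth limits Sele, at 1 to 12 estimated reads.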
